A study of Arabidopsis thaliana with 4 samples.

Results

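CP29 is a minor antenna protein of photosystem II, and Arabidopsis thaliana carries 3 nuclear genes for it, LHCB4.1 (AT5G01530), LHCB4.2 (AT3G08940) and LHCB4.3 (AT2G40100). They were taken by gene symbol from the array's annotation, which paired each of them with 1 probe set of its own, so the set is 3 of 13356 genes with a probe set of their own, on an array of 22746 probe sets. The family was chosen by its albino minus control differences, which were already known to diverge between the genes. Those differences are therefore given as a description, without a test.

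CP29 binds chlorophyll a, chlorophyll b and xanthophylls, and sits between the photosystem II core and the trimers of the major antenna, where it passes excitation energy to the core and takes part in its dissipation under excess light. Like the other light-harvesting proteins it is made in the cytosol, imported into the chloroplast and inserted into the thylakoid membrane. In Arabidopsis, transcripts of nuclear antenna genes are known to depend on light and on signals from the plastid to the nucleus. LHCB4.3 is also called LHCB8 and codes for a protein with a shortened C-terminal region. It is known for low expression in ordinary light and higher expression in strong light.

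Whole-genome transcript levels were measured in plants of the albino mutant line DS 13-2198-1 on 4 arrays, 2 titled control and 2 titled albino. Controls were segregants of normal appearance and albinos their white sibs from the same parental line, both grown together for 3 weeks on diluted Murashige and Skoog medium with 2% sucrose at 23 °C, with 16 h of light and 8 h of dark. All plants thus had an external sugar source. The sources used here name neither the disrupted gene, nor the genotype of the control segregants, nor how many plants were pooled per array. A free-text field describes all 4 samples as wild type, against the titles of the albino samples, so the titles, which match the source names, set the groups.

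Values are log2 probe-set summaries made by the RMA method (robust multi-array average), on which a difference of 1 is 2-fold. A pair below means the control and albino array with the same replicate number. Array medians were 5.84 and 5.85 in pair 1 and 6.12 in both arrays of pair 2, and the median difference over all probe sets was 0.01 in pair 1 and 0.03 in pair 2. Percentiles of the values differed by at most 0.0850 between the arrays of a pair but by up to 0.354 between arrays of different number, so the differences within each pair carry most weight here. Over all probe sets the SD of the differences was 0.598 in pair 1 and 0.364 in pair 2.

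The 3 CP29 genes did not move together. LHCB4.2 was higher in the albino array of both pairs, 2.98-fold and 2.17-fold. LHCB4.1 stayed within 1.07-fold in both pairs, and LHCB4.3 was lower in both, at 0.603 and 0.823 times the control. With limma, fitted to the whole table, 0% of probe sets passed in either direction at an adjusted p under 0.05, and so 0 of the 3, while 609 higher and 701 lower ones passed at an unadjusted p under 0.05. These counts are a background for the table, and nothing is read from them about the 3 genes, which were chosen on this contrast.

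LHCB4.1 had a log2 value of 12.54 in control replicate 1, 12.57 in albino replicate 1, 12.69 in control replicate 2 and 12.78 in albino replicate 2. The groups overlapped, and the arrays of replicate 2 were the higher ones in both groups. The difference between the group means, 12.61 ± 0.10 in control and 12.67 ± 0.15 in albino (SD, n = 2 each), was 0.06 (SE 0.26). This is smaller than either SD, with 0.03 in pair 1 and 0.09 in pair 2. In pair 1, 51.6% of all probe sets had a lower difference than LHCB4.1, and in pair 2 59.0%.

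The LHCB4.1 probe set was among the brightest of the array, ranking 35th and 37th of 22746 in control and albino replicate 1, and 18th and 15th in control and albino replicate 2. The brightest probe sets differed less between the groups than probe sets at large. Over the 27 probe sets with a mean at or above that of LHCB4.1, the differences had an SD of 0.293 in pair 1 and 0.200 in pair 2. They ran from -0.87 to 0.81 in pair 1 and from -0.44 to 0.64 in pair 2, and 0 of the 27 reached 2-fold in both pairs. RMA values hold no flag for saturated probes, and the part of saturation in the small LHCB4.1 difference was not tested.

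LHCB4.2 had a log2 value of 10.27 in control replicate 1, 11.85 in albino replicate 1, 10.31 in control replicate 2 and 11.43 in albino replicate 2. Both albino arrays lay above both control arrays, and the gap between the groups was wider than the spread within either. The control mean was 10.29 ± 0.03 and the albino mean 11.64 ± 0.30 (SD, n = 2 each). They lay 1.35 apart (SE 0.28), which is 2.54-fold. The controls were close to each other, and most of the spread came from the albino arrays.

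The difference of LHCB4.2 was 1.58 in pair 1 and 1.12 in pair 2. It ranked 212th of 22746 from the top in pair 1 and 172nd in pair 2, so its place in the order was similar although its size was smaller in pair 2, where the SD over all probe sets was also smaller. It was the only one of the 3 genes at least 2-fold higher in both pairs, a criterion that 0.813% of all probe sets met. In the opposite direction 0 of the 3 genes and 0.963% of all probe sets reached 2-fold in both pairs.

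**Figure D1:**
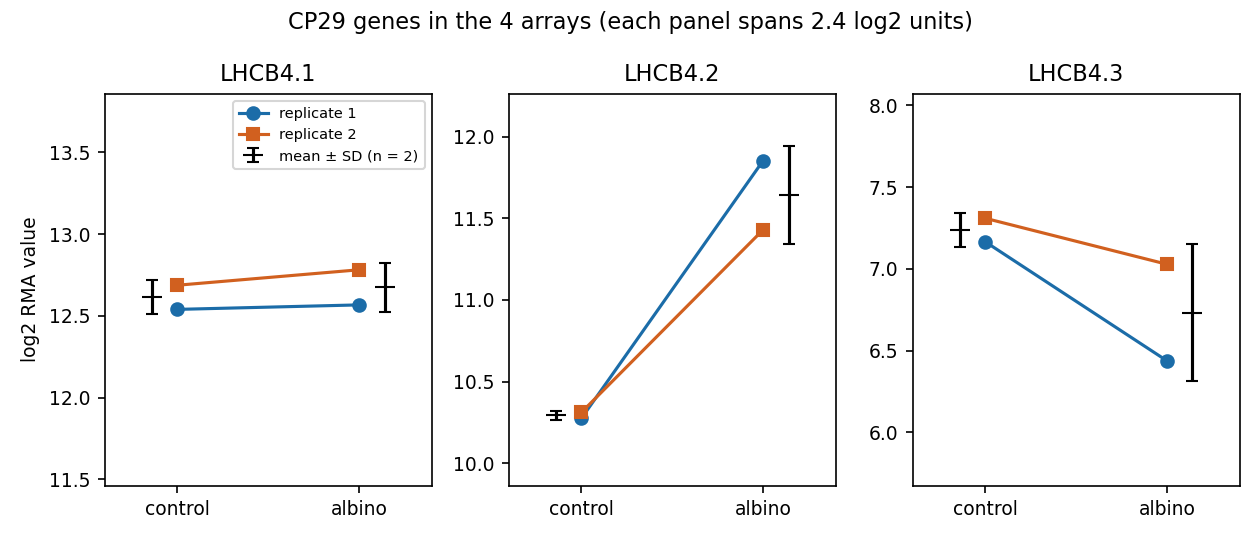
Log2 RMA value (vertical axis) of each CP29 gene in the control and albino array of replicate 1 (circles) and replicate 2 (squares), joined within a replicate, with the group mean and SD (n = 2) beside them in black. The LHCB4.2 lines climb from about 10.3 to 11.85 and 11.43, those of LHCB4.1 stay nearly level and those of LHCB4.3 slope down, more steeply in replicate 1.

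Few of the probe sets as bright as LHCB4.2 or brighter reached 2-fold in both pairs. Of the 381 with a mean at or above that of LHCB4.2, itself included, 3 were at least 2-fold higher in both pairs. That is 0.787%, beside 0.813% of all probe sets, and it counts LHCB4.2, which was chosen on this contrast. Only 1 of the 381 was at least 2-fold lower in both pairs, beside 0.963% of all probe sets. Besides LHCB4.2 the higher ones were psaB, the plastid gene for a reaction-centre protein of photosystem I, with 2.82 in pair 1 and 1.34 in pair 2, and a probe set without a gene name here (1.85 and 1.22). The unnamed higher one rose by more than LHCB4.2 in both pairs. Its name ends in _s_at, which none of the 3 CP29 probe set names does, and which gene or genes it measures was not tested. The lower one was also without a name. These probe sets were looked up after their values were seen.

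LHCB4.3 had a log2 value of 7.17 in control replicate 1, 6.44 in albino replicate 1, 7.31 in control replicate 2 and 7.03 in albino replicate 2. Both albino arrays lay below both controls, though the gap from albino replicate 2 to the lower control was smaller than the spread between the albino arrays. The control mean was 7.24 ± 0.10 and the albino mean 6.73 ± 0.42 (SD, n = 2 each). The difference was -0.51 (SE 0.30), with -0.73 in pair 1 and -0.28 in pair 2. With the replicate number added to the fit as a block, which leaves 1 residual degree of freedom, the SE was 0.19.

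The lower value of LHCB4.3 rested mostly on replicate 1, and it was not far out among all probe sets. A lower difference was seen in 8.22% of them in pair 1 and in 14.6% in pair 2. Without albino replicate 1 the difference was -0.21, and without albino replicate 2 it was -0.80. The signal was moderate, with 69.2% and 66.6% of probe sets below it on the control arrays and 58.5% and 62.2% on the albino arrays of replicates 1 and 2.

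By sign, 2 of the 3 genes were higher in both pairs, which 34.6% of all probe sets were, and 1 was lower in both, as were 28.5%. By array values, 1 gene had both albino arrays above both controls (16.2% of all probe sets) and 1 had both below (13.6%). These shares are a background for the counts, and nothing is read from them because the genes were chosen on the same contrast.

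The paralogues can be set against each other by how far their differences were apart within a pair, which removes a constant offset between probe sets but not compression of a bright or dim signal. Levels of different probe sets are not compared here. The albino minus control difference of LHCB4.2 exceeded that of LHCB4.1 by 1.55 in pair 1 and 1.02 in pair 2. Saturation of the LHCB4.1 probe set was not tested, so the excess is given for the signal, and its size in transcript number was not tested. The mean excess over the pairs was 1.29 ± 0.37 (SD, n = 2 pairs). LHCB4.2 exceeded LHCB4.3 by 2.306 in pair 1 and 1.399 in pair 2, with a mean of 1.85 ± 0.64 (SD, n = 2 pairs).

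The separation of LHCB4.1 from LHCB4.3 was smaller, 0.76 in pair 1 and 0.38 in pair 2, with a mean of 0.57 ± 0.27 (SD, n = 2 pairs). The order of the differences, LHCB4.2 over LHCB4.1 over LHCB4.3, was the same in both pairs. All 3 probe set names carry the suffix of sets designed for a single transcript, but probe sequences were not used here, so binding of one paralogue's RNA to another's probes was not tested. Whole plants were extracted, so a smaller number of cells of 1 kind and less of the transcript per cell cannot be told apart.

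**Figure D2:**
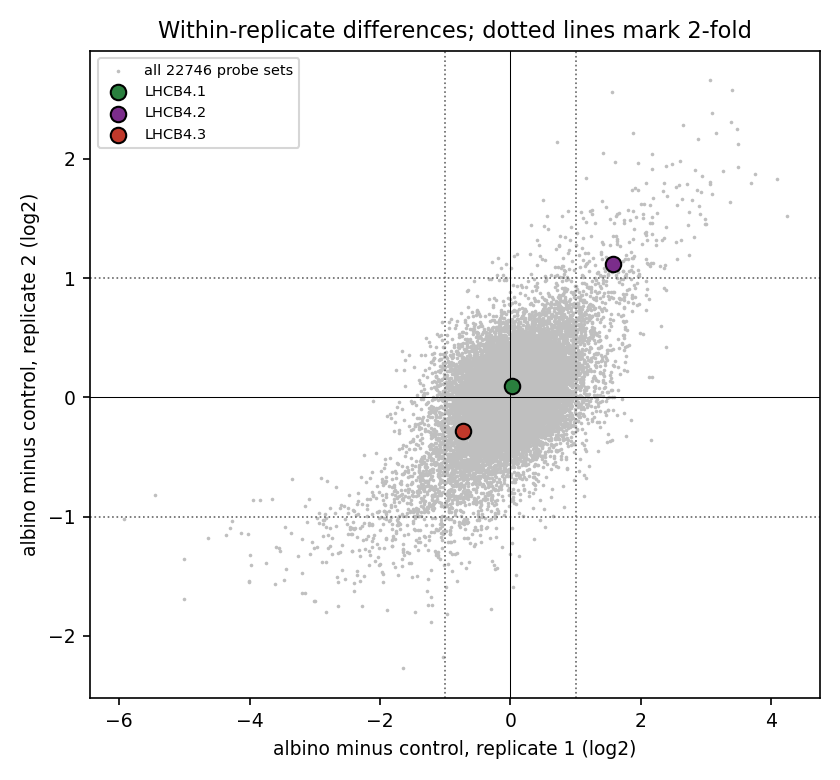
Albino minus control difference (log2) in replicate 1 (horizontal axis) against replicate 2 (vertical axis) for all probe sets (grey) and the CP29 genes (coloured), with dotted lines at 2-fold. LHCB4.2 lies to the upper right beyond both lines (1.58 and 1.12), with other probe sets farther out. LHCB4.1 lies in the centre of the cloud and LHCB4.3 to the lower left of that centre, inside the lines.

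**Figure D3:**
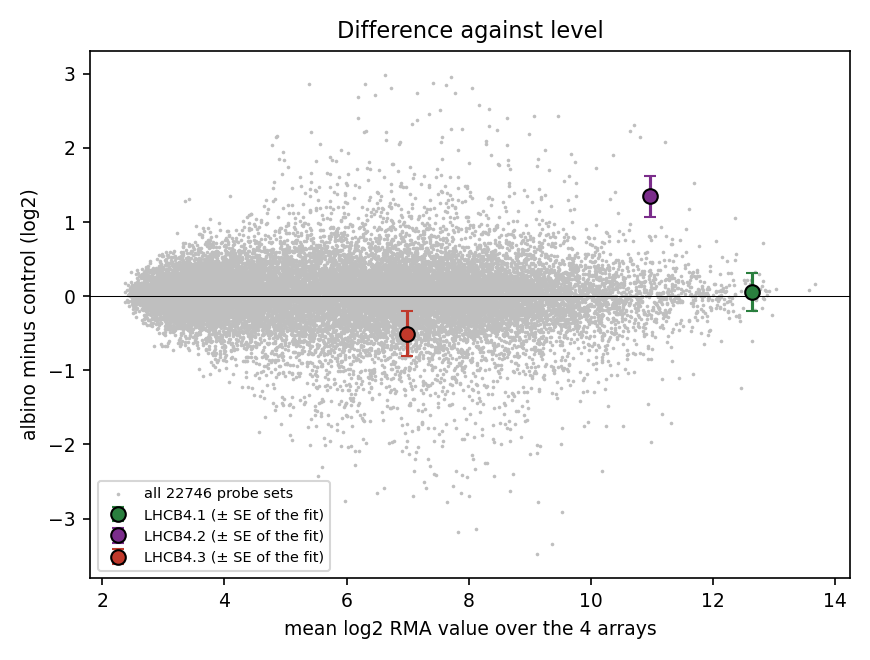
Albino minus control difference (log2, vertical axis) against the mean log2 RMA value over the 4 arrays (horizontal axis) for all probe sets (grey) and the CP29 genes with the SE of the fit. LHCB4.2 stands above most probe sets of its level, LHCB4.1 lies in that band near 0, and LHCB4.3 lies within the broad cloud at a moderate level.

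The measured nuclear genes of the photosystems and the LHC-like proteins gave smaller differences than LHCB4.2 in both pairs. So did most probe sets, as 99.1% of them lay below LHCB4.2 in pair 1 and 99.2% in pair 2. LHCB4.2 was chosen on this contrast, so its larger difference does not set these genes apart. Of 67 listed genes 7 were measured by a single-gene probe set, and the other 60 are not analysed here, among them all 18 listed genes for other light-harvesting proteins, the 4 kinase and phosphatase genes, the 4 genes for insertion of antenna proteins and the 11 regulators. Of the 7, 0 passed the limma test, 5 were higher in both pairs, 1 was lower in both and 1 had opposite signs. Over all probe sets 34.6% were higher in both pairs and 28.5% lower in both. Their median difference was 0.18 (0.27 in pair 1 and 0.10 in pair 2), beside 0.02 over all probe sets, and 0 of the 7 reached 2-fold in both pairs.

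The 3 measured nuclear subunits of photosystem II were all higher in both pairs, as were 34.6% of all probe sets. For PSBY, a small membrane subunit, pair 1 gave 0.32 and pair 2 gave 0.45, a mean of 0.38 (SE 0.25). For PSBW, which stabilises the supercomplex of core and antenna, they gave 0.27 and 0.10, a mean of 0.19 (SE 0.32). For PSB27, an assembly factor of the complex, they gave 0.29 and 0.07, a mean of 0.18 (SE 0.25). For PSBW the groups overlapped, and each of the 3 differences was within 2 SE of 0 in the fit without a block. With the replicate block, which leaves 1 residual degree of freedom, the SE was 0.15 for PSBY, 0.15 for PSBW and 0.16 for PSB27. On that SE the PSBY difference was beyond 2 SE and those of PSBW and PSB27 were not. This cutoff does not set PSBY apart. Its adjusted p in the limma fit with the block was 0.36. In that fit 0 probe sets passed at an adjusted p under 0.05, while 1631 higher and 1712 lower ones passed at an unadjusted p under 0.05.

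In photosystem I, PSAN, a lumenal subunit near the docking site of plastocyanin, was higher by 0.40 in pair 1 and 0.37 in pair 2, on average 0.38 (SE 0.25). PSAE1, a stromal subunit near the ferredoxin docking site, gave -0.01 and 0.05, on average 0.02 (SE 0.27). The LHC-like proteins LIL3:1 and LIL3:2, which take part in chlorophyll synthesis, differed by -0.24 (SE 0.25) and 0.11 (SE 0.28). LIL3:1 was lower in both pairs and LIL3:2 higher in both. The mean differences of PSAE1, LIL3:1 and LIL3:2 were each smaller in size than the SE without a block, and that of PSAN was larger. The PSAE1 and LIL3:2 groups overlapped, and those of PSAN and LIL3:1 did not. With the replicate block the SE was 0.15 for each of these genes. On that SE the PSAN difference was beyond 2 SE, like that of PSBY, with an adjusted p of 0.36 in the limma fit with the block. The LIL3:1 difference was beyond 1 SE, and those of PSAE1 and LIL3:2 were not. The within-pair differences were -0.24 and -0.25 for LIL3:1 and 0.07 and 0.15 for LIL3:2.

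The core of photosystem II, to which CP29 attaches, is encoded in the plastid. Its 4 largest subunits were looked up after their values were seen. psbC, which codes for the inner antenna CP43, differed by 1.64 in pair 1 and 1.00 in pair 2, close to LHCB4.2. psbB, which codes for the inner antenna CP47, differed by 0.13 and -0.15. The reaction-centre genes psbD (D2) and psbA (D1) differed by 1.43 and 0.23, and by -0.28 and -0.25. These plastid genes, like the CP29 genes, did not move together.

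**Figure D4:**
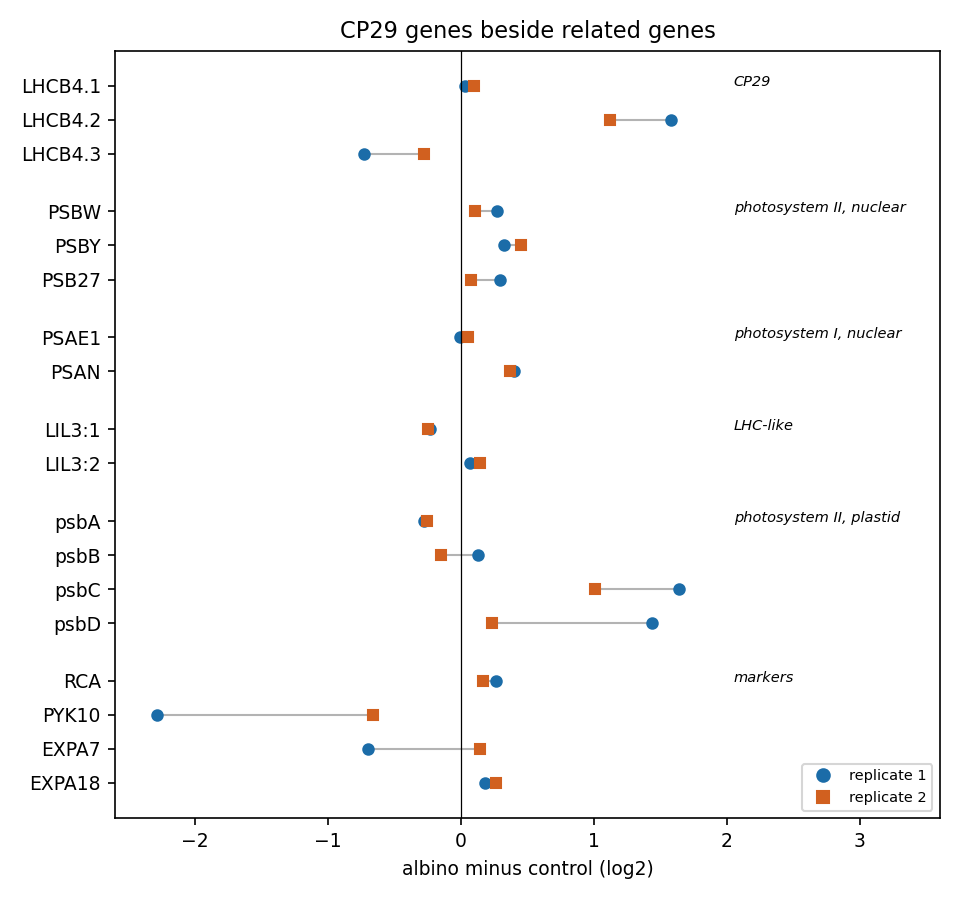
Albino minus control difference (log2, horizontal axis) of each gene in replicate 1 (circles) and replicate 2 (squares), joined by a line, for the CP29 genes, measured nuclear photosystem and LHC-like genes, 4 plastid genes of the photosystem II core, and markers of green tissue (RCA) and root (PYK10, EXPA7, EXPA18). LHCB4.2 and psbC are the 2 genes beyond 1 in both replicates, and PYK10 has the lowest values.

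Markers of tissue moved to different extents on the same arrays. RCA, the Rubisco activase gene and the 1 measured of 4 green tissue markers, had log2 values of 12.28 and 12.18 in the controls and 12.54 and 12.34 in the albino arrays (replicates 1 and 2), a difference of 0.21 (SE 0.25). Of the 3 root markers, all measured, 1 was higher in both pairs (34.6% of all probe sets), 1 lower (28.5%) and 1 of opposite signs. PYK10, an abundant beta-glucosidase of roots, had log2 values of 11.18 and 10.86 in the controls and 8.89 and 10.19 in the albino arrays. EXPA7 and EXPA18, expansin genes of root hairs, lay between 3.94 and 4.87 on all arrays. The part of tissue composition in the LHCB4.2 and LHCB4.3 differences was not tested. The root marker differences in pair 1 and pair 2 were -2.29 and -0.67 for PYK10, -0.70 and 0.14 for EXPA7, and 0.18 and 0.27 for EXPA18.

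The nearest measured genes on the chromosome did not share the LHCB4.2 difference in size. AT3G08930, the gene record next to LHCB4.2, differed by 0.17 in pair 1 and 0.34 in pair 2, and AT3G08960, 4 records away on the other side, by 0.07 and -0.13. Next to LHCB4.3, AT2G40110 differed by -0.29 and -0.28, close to the LHCB4.3 value of pair 2. On its other side AT2G40050, 8 records away and dim, gave opposite signs, -0.42 and 0.18. TAAC, 3 records from LHCB4.1, differed by -0.02 and 0.23. Neighbours were taken from the TAIR10.1 gene records and chosen by position.

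Likeness to each CP29 gene was measured over 13366 other nuclear probe sets with 1 gene, as the distance between the points formed by the 2 within-pair differences. Within a distance of 0.1 lay 2 probe sets for LHCB4.2, 764 for LHCB4.1 and 86 for LHCB4.3. These counts follow from how far each gene lies from the centre of all differences, and do not show that a pattern is rare. The nearest to LHCB4.2 were AT3G61260 (1.57 in pair 1 and 1.05 in pair 2, distance 0.0686), AT4G19430 (1.48 and 1.11, distance 0.0928) and AT4G32460 (1.501 and 1.037, distance 0.111). The distance rests on 4 arrays, and with a distance over the 4 array values, each gene's mean subtracted, AT4G19430 alone of these 3 stayed among the nearest 3.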

How the data were processed

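RNA of 4 samples was labelled and hybridized to 1 array each. The authors deposited log2 summaries per probe set, made with RMA per the submitters' processing notes. The sources used here name no software, version or set of arrays normalized together. The values carry no detection or saturation call. The platform annotation gave 1 gene for 13513 of 22746 probe sets, several for 503 and none for 8730. Genome coordinates served to order the gene records for the choice of chromosome neighbours. Sequences are not used here.

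Albino minus control differences were fitted with limma 3.58.1 (R 4.3.3, lmFit and eBayes, two-sided) over all probe sets, without a block, with 2 residual degrees of freedom and Benjamini-Hochberg adjustment. SE is that of this fit, and SD is over the 2 arrays of a group. The script was tested on simulated data. The labels do not say whether replicates were separate plant pools, so errors and p-values measure the spread between arrays, which may be technical, and the number of arrays limits the precision. Members, lists and tests were chosen with earlier results of these data known. Named genes were the CP29 genes, every measured member of each list, and the 3 nuclear genes most like a CP29 gene that differed by at least 0.5 in both pairs, which only LHCB4.2 did. The 2-fold criterion, core genes and neighbours were added after the data were seen. Alternatives were the replicate block, quantile and cyclic loess normalization, filters on dim probe sets, another prior, another threshold and each array left out.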

Additional observations from a re-analysis of the deposited data

How the results depend on the processing

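The differences of LHCB4.2 and LHCB4.3 kept their sign under quantile normalization and cyclic loess. Leaving out 1 array could not change either sign, because for each gene both albino arrays lay on the same side of both controls. LHCB4.2 ran from 1.14 to 1.56 and LHCB4.3 from -0.80 to -0.21 without 1 array. LHCB4.1 ran from -0.0464 to 0.169 without 1 array, so its sign is not settled, and under quantile normalization its difference in pair 1 was -0.02 in place of 0.03. With the replicate block the differences were the same by construction (1.35 for LHCB4.2). The SE with the block was 0.15 in place of 0.26 for LHCB4.1, 0.19 in place of 0.28 for LHCB4.2 and 0.19 in place of 0.30 for LHCB4.3. Arrays of the same number deviated together from their group means (r = 0.662 across probe sets), but the labels state no shared batch. Counts of called probe sets were 0 higher and 0 lower with the block (1631 and 1712 at an unadjusted p under 0.05), under both normalizations, both dim filters, the trended and robust prior and a threshold of 0.1. Over the fits without 1 array they ran from 0 to 30 higher and from 0 to 152 lower, the highest without albino replicate 2, where the albino group is a single array assumed to vary like the controls. Probe sets 2-fold higher in both pairs numbered 180 to 185, and lower ones 219 to 232, over the 3 normalizations.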
